A study of Mus musculus with 10 samples.

Results

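The genes described here are 43 genes of DNA replication and S phase, the part of the cell cycle in which the genome is copied. They were chosen by symbol for their textbook roles, with earlier results of these data known. All 43 were found by Ensembl identifier among the 55421 genes of the count table. By role, 10 act in origin licensing, 7 in helicase activation, 8 are subunits of primase and the replicative polymerases, 10 belong to the clamp, its loader and lagging-strand work, 5 supply nucleotides and 3 act in chromatin assembly.

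RNA was sequenced from myeloid cells of mice bearing MC17-51 fibrosarcomas, a mouse tumor cell line, at day 15 after implantation. Myeloid-derived suppressor cells (MDSC), immature myeloid cells that expand in tumor-bearing hosts, came from the spleen, where the study isolated the granulocytic (Ly6G+) kind with magnetic beads. Tumor-associated macrophages (TAM) were sorted from the tumors of those mice as live cells positive for CD45, CD11b and F4/80 and negative for Ly6G. The 4 groups were MDSC from Shp2f/f mice (2 samples), MDSC from Shp2f/fLysMcre mice (2 samples), TAM from Shp2f/f mice (3 samples) and TAM from Shp2f/fLysMcre mice (3 samples). All 4 groups carried floxed Ptpn11, the gene of the phosphatase SHP-2, and the tumor, and the Shp2f/fLysMcre groups differed by Cre recombinase under the lysozyme M promoter, which is active in neutrophils, monocytes and macrophages. Because deletion in any one cell depends on that promoter, a Shp2f/fLysMcre sample can hold cells that still have the floxed exon. The labels tie no MDSC sample to a TAM sample, give no age for the animals and do not state how many mice went into a sample, so p-values measure the spread between these samples only.

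Replication starts with licensing, in which the origin recognition complex, Cdc6 and Cdt1 load the ring-shaped MCM2-7 helicase onto DNA in G1 phase. At the onset of S phase the Cdc7 kinase, Mcm10, Cdc45 and the GINS complex turn that ring into a moving helicase, polymerases alpha, delta and epsilon copy the strands, and the sliding clamp PCNA, placed by replication factor C, holds the polymerases on DNA. Transcripts of most of these proteins rise in cycling cells under the E2F transcription factors, and neutrophils lose them as they leave the cell cycle during maturation, whereas some tissue macrophages and TAM can divide in place.

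Promoter sequence is shown for 4 members so that E2F-type motifs can be read directly: Cdc6 and Mcm6 had 2 of the 3 largest falls in TAM, Mcm5 missed the threshold in MDSC by a narrow margin, and Rfc1 was called in neither cell type. RefSeq windows (GRCm38.p6) of 250 bases before to 50 bases after the start were found for 36 members, in 43 windows. The motifs searched were TTTCCCGC, TTTGCCGC, TTTGGCGC and TTTCGCGC on both strands, and matches on opposite strands may overlap. Each line below is 100 bases, 5′ to 3′ on the strand of the gene, with matches in capitals.
Mcm6, chr1:128359736-128359835, minus strand, from 130 to 31 bases before the start: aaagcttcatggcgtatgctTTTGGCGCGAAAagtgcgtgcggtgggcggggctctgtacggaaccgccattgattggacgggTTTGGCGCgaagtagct
Mcm5, chr8:75109319-75109418, plus strand, from 190 to 91 bases before the start: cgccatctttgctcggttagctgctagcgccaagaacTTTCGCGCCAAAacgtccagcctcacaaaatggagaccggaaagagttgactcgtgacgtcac
Cdc6, chr11:98907983-98908082, plus strand, from 168 to 69 bases before the start: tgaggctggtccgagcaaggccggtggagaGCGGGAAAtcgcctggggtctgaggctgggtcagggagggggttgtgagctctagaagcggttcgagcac
Rfc1, chr5:65335680-65335779, minus strand, from 140 to 41 bases before the start: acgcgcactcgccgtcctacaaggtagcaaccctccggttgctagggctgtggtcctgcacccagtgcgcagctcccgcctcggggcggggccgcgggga

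The Mcm6 stretch held 3 matches, of which a pair overlaps, the Mcm5 stretch held 2 overlapping matches, the Cdc6 stretch held 1 match on the opposite strand, and the Rfc1 stretch and its whole window held 0. Over all members with a window, 14 of 36 had a match (Orc1, Cdc6, Cdt1, Mcm3, Mcm5, Mcm6, Mcm7, Gins3, Pola1, Pold1, Pole2, Rfc3, Lig1 and Uhrf1), and in 9 of the 14 a match lay wholly before the start. By window, 32.6% of member windows held a match, beside 2.26% of all 32851 windows and 2.85% of windows of protein-coding genes. The CCAAT box (CCAAT) was in 55.8% of member windows and 37.4% of all windows, the GC box (GGGCGG) in 74.4% and 35.7%, the E-box (CACGTG) in 16.3% and 7.15%, and the CHR element (TTTGAA) in 16.3% and 17.9%. A match is a run of letters and not a measured binding site.

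Total counts were between 28844660 and 38222998 per library, and the members' own counts in 1 library ran from 120 (Orc1) to 10336 (Mcm6). All 43 members passed the filter on low counts in every comparison. Levels are in CPM, which divides each count by its library's size as corrected by TMM over the 10 libraries. Ptpn11, counted over the whole gene and so also where an exon is deleted, had a log2 fold change of -0.29 in MDSC (SE 0.143, BH-adjusted p = 0.361 by edgeR) and -1.24 in TAM (SE 0.0386, BH-adjusted p = 2.96e-09 by edgeR). The 9 mature neutrophil markers summed to between 7677 and 21495 CPM in MDSC, against 2600 to 4761 CPM in TAM, and the 10 macrophage markers to between 12697 and 22402 CPM in TAM, against 2444 to 3164 CPM in MDSC. In Shp2f/f mice 7 of 9 neutrophil markers were lower in TAM than in MDSC and 2, Mmp9 and Il1r2, were higher. Of the macrophage markers, 9 of 10 were higher in TAM (both by edgeR quasi-likelihood, BH-adjusted p under 0.05). Among all 15659 genes tested there, 40.0% were called higher in TAM and 38.8% lower. Each label was met by most of its markers, while both lists were detected in both cell types. One library stood apart: 12 fibroblast and fibrosarcoma markers summed to 751 CPM in MDSC Shp2f/fLysMcre replicate 2 and to between 15.6 and 34.9 CPM in the other 3 MDSC libraries.

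In spleen MDSC, replication transcripts were higher in Shp2f/fLysMcre than in Shp2f/f mice. The 43 members summed to 1723 and 1742 CPM in the 2 Shp2f/f libraries and to 3153 and 3019 CPM in the 2 Shp2f/fLysMcre libraries, a ratio of group means of 1.78. The log2 fold change was positive for 43 of 43 members, with a median of 0.82 and a range of 0.24 to 1.35, beside a median of -0.01 over all 14806 genes tested. Of the members, 31 rose and 0 fell at an adjusted p under 0.05 (edgeR quasi-likelihood test, Benjamini-Hochberg adjustment over all genes tested), where 3.76% of all genes tested were called higher and 0.520% lower. At an unadjusted p under 0.05 by the same test, 40 members were higher and 0 lower. The share of all genes at that threshold is not given here. The 12 that did not pass were Mcm5, Gins2, Gins3, Gins4, Pola1, Pola2, Pold2, Pole2, Rpa1, Rpa2, Rfc1 and Rfc2, and their BH-adjusted p by edgeR ran from 0.0502 to 0.324. In all 43 members both Shp2f/fLysMcre libraries lay above both Shp2f/f libraries, an order shown by 24.9% of all genes tested. In bulk RNA, fewer cells of a type and less RNA per cell cannot be told apart, nor can more cells in cycle and more transcript per cycling cell.

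The smallest adjusted p among members in MDSC was 0.0179 (edgeR quasi-likelihood, BH). Leaving out an MDSC library left a lone sample in its group, assumed to vary like the other pair. The calls did not hold without either Shp2f/f library, when almost no gene of the whole table passed. The members' median log2 fold change was 0.83 without Shp2f/f replicate 1 and 0.89 without replicate 2. It was 0.80 without Shp2f/fLysMcre replicate 1 and 0.82 without replicate 2, the library high in fibroblast markers. Markers of erythroid cells and of all 3 neutrophil stages listed moved with the members in MDSC: the 14 erythroid markers found in the table summed to 383 and 415 CPM in Shp2f/f and 774 and 887 CPM in Shp2f/fLysMcre, with 11 of 14 called higher and 1 lower. The 6 azurophil granule markers of neutrophil progenitors (Mpo, Elane and others) summed to 478 and 427 CPM and to 1249 and 1020 CPM, with 6 of 6 called higher. The 7 specific granule markers of developing neutrophils summed to 5549 and 5509 CPM and to 17413 and 13304 CPM, with 5 of 7 called higher. The 9 mature neutrophil markers summed to 7697 and 7677 CPM and to 21495 and 18132 CPM, with 4 of 9 called higher and 0 lower. No gene of these 4 lists was at 0 in any MDSC library, and their part in the rise of the members was not tested.

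In TAM the direction was the opposite. The members summed to 2419, 2483 and 2405 CPM in Shp2f/f and to 1794, 1707 and 1630 CPM in Shp2f/fLysMcre, a ratio of group means of 0.702. Of the 43, 41 fell and 0 rose (0 also at an unadjusted p under 0.05), where 26.3% of all 14446 genes tested were called lower and 23.9% higher (edgeR quasi-likelihood, BH-adjusted p under 0.05). The median log2 fold change was -0.58, with a range of -0.93 to 0.00, beside -0.01 over all genes tested. The exceptions were Rfc1 and Rfc2, subunits of the clamp loader. In 39 members every Shp2f/fLysMcre library lay below every Shp2f/f library, as in 27.2% of all genes tested, and the genotypes overlapped for Gins3, Pcna, Rfc1 and Rfc2. Scaling by total counts moved the median of all genes in TAM to -0.11 and the calls over all genes from 3452 higher and 3805 lower to 2342 higher and 5227 lower, and the members' median to -0.68.

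Macrophage markers moved the other way in TAM: the 10 summed to between 12697 and 13347 CPM in Shp2f/f and between 20161 and 22402 CPM in Shp2f/fLysMcre, with 10 of 10 called higher. The 10 T and NK cell markers summed to between 22.8 and 23.3 CPM in Shp2f/f and between 9.44 and 9.92 CPM in Shp2f/fLysMcre, with 9 of 10 called lower. The 9 mature neutrophil markers summed to between 4459 and 4761 CPM and between 2600 and 2728 CPM, yet 6 of the 8 tested were called higher and 1, Mmp9 (-1.06), lower, with a median log2 fold change of 0.52. The 12 fibroblast markers summed to between 363 and 378 CPM and between 334 and 352 CPM, with 5 called lower and 1 higher and a median log2 fold change of -0.16. The 8 B cell markers summed to between 21.8 and 22.9 CPM and between 51.4 and 56.7 CPM. The erythroid and azurophil granule lists, which rose in MDSC, summed to at most 12.4 and 3.23 CPM in any TAM library, with 5 or 6 of the 14 erythroid markers at 0. The 8 pancreatic islet and acinar markers, foreign to either cell type, summed to between 851 and 6558 CPM in TAM Shp2f/f and between 19.8 and 95.1 CPM in TAM Shp2f/fLysMcre. The part of these lists in the fall of the members was not tested.

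**Figure D1:**
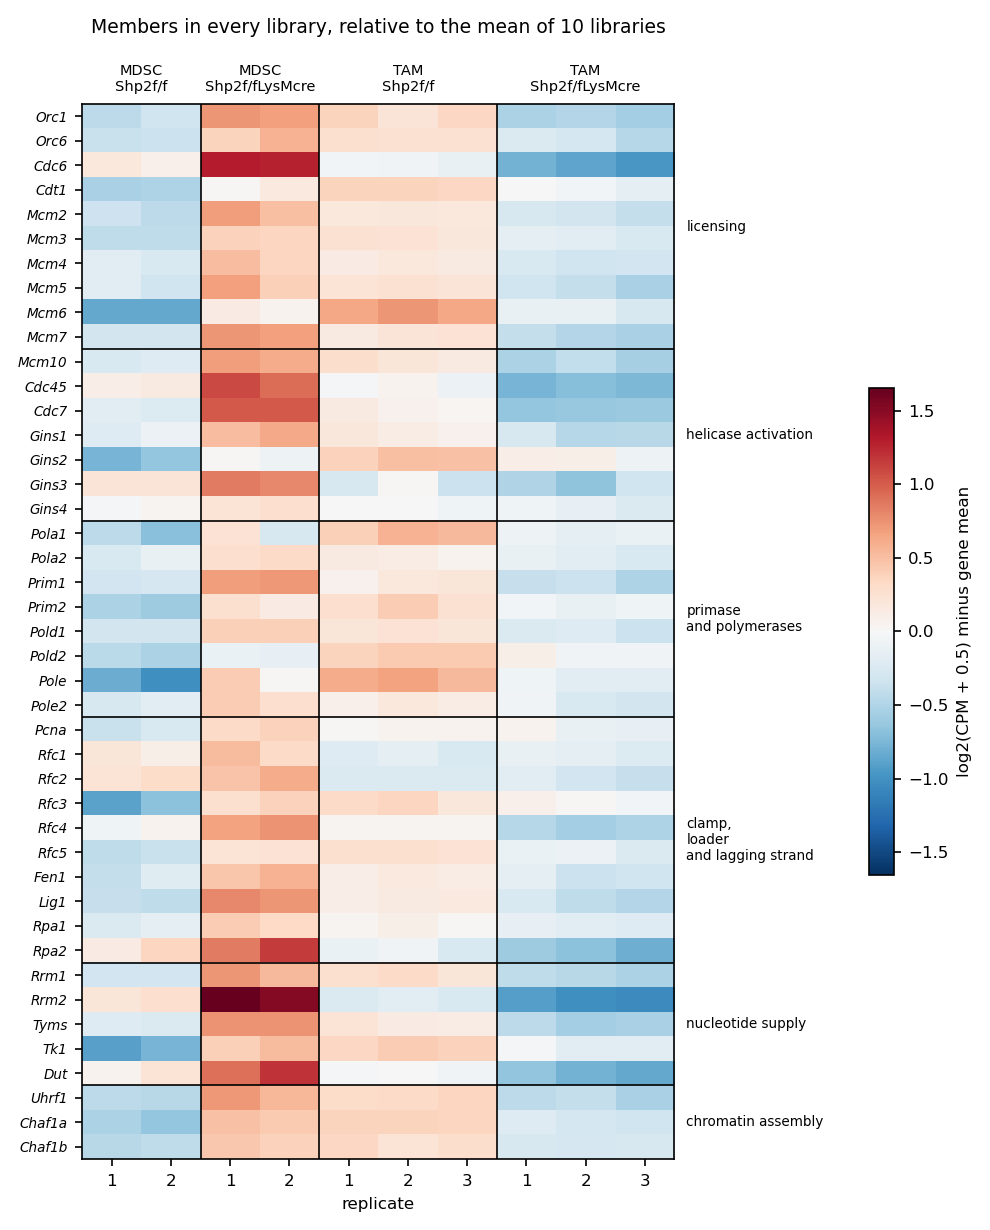
Level of each of the 43 members (one per line, grouped by role) in each of the 10 libraries (columns, by group and replicate), as log2(CPM + 0.5) minus the mean of the gene over the 10 libraries. Red is above and blue below that mean: MDSC Shp2f/fLysMcre libraries are red for nearly all members, and TAM Shp2f/fLysMcre libraries are blue for nearly all. Rfc1 and Rfc2 are below their mean in the TAM libraries of both genotypes.

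Licensing genes changed together. In MDSC 9 of 10 rose, all but Mcm5, with a median log2 fold change of 0.89, and in TAM 10 of 10 fell, with a median of -0.66. Orc1, the ATP-binding subunit of the origin recognition complex that cycling cells renew each cycle, was at 4.85 and 5.22 CPM in MDSC Shp2f/f and 11.5 and 11.0 CPM in MDSC Shp2f/fLysMcre. In TAM it was at 8.82, 7.90 and 8.61 CPM in Shp2f/f and 4.52, 4.66 and 4.41 CPM in Shp2f/fLysMcre. The groups did not overlap in either cell type, and the fall in TAM had the largest size among the 43 members. Orc1 had a log2 fold change of 1.15 in MDSC (SE 0.155, BH-adjusted p = 0.0239 by edgeR) and -0.93 in TAM (SE 0.0871, BH-adjusted p = 5.97e-06 by edgeR).

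Cdc6, the loader that brings the helicase to the origin, was at 22.5 and 21.2 CPM in MDSC Shp2f/f and 49.6 and 49.0 CPM in MDSC Shp2f/fLysMcre. Its levels in TAM were 19.2, 19.2 and 18.2 CPM in Shp2f/f and 11.3, 10.7 and 9.99 CPM in Shp2f/fLysMcre. Both MDSC Shp2f/fLysMcre libraries were thus the highest of the 10 and the 3 TAM Shp2f/fLysMcre libraries the lowest. The log2 fold changes were 1.17 (SE 0.107, BH-adjusted p = 0.0179 by edgeR) in MDSC and -0.86 (SE 0.0622, BH-adjusted p = 8.98e-07 by edgeR) in TAM. Cdt1, the partner of Cdc6, had the smallest change of the licensing genes in MDSC, 0.62, and -0.46 in TAM. Orc6 had 0.85 and -0.63.

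Mcm6, a helicase subunit with 3 E2F-type matches in the stretch shown, had the highest mean CPM of all members. It was at 90.1 and 90.0 CPM in MDSC Shp2f/f and 178 and 168 CPM in MDSC Shp2f/fLysMcre. TAM levels were 254, 269 and 252 CPM in Shp2f/f and 149, 148 and 135 CPM in Shp2f/fLysMcre. Here the TAM Shp2f/f libraries were the highest of the 10, and the genotypes did not overlap in either cell type. The log2 fold change was 0.94 in MDSC (SE 0.11, BH-adjusted p = 0.0202 by edgeR) and -0.88 in TAM (SE 0.0459, BH-adjusted p = 8.99e-08 by edgeR). Mcm5, another subunit of the ring, was at 101 and 91.6 CPM in MDSC Shp2f/f and 185 and 151 CPM in MDSC Shp2f/fLysMcre, the latter pair being further apart than for most members. It was at 134, 137 and 133 CPM in TAM Shp2f/f and 91.5, 87.4 and 78.8 CPM in TAM Shp2f/fLysMcre. The MDSC difference of 0.80 just missed the threshold (SE 0.148, BH-adjusted p = 0.0502 by edgeR), and in TAM Mcm5 fell (log2 fold change -0.69, SE 0.0492, BH-adjusted p = 8.21e-07 by edgeR).

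The 6 subunits stand in equal numbers in the helicase, but their transcripts did not stand at equal levels per length. Per kilobase of exon, in MDSC Shp2f/f the mean levels were 8.92 ± 0.357 CPM per kilobase for Mcm2, 16 ± 0.0414 for Mcm7, 19.3 ± 0.0138 for Mcm6, 21.0 ± 0.0750 for Mcm3, 23.8 ± 0.697 for Mcm4 and 24.1 ± 1.62 for Mcm5 (SD, n = 2). Mcm4 and Mcm5 did not differ beyond their spread there. In TAM Shp2f/f Mcm6 led with 55.4 ± 2.01 CPM per kilobase, and Mcm5 at 33.8 ± 0.514 and Mcm3 at 33.1 ± 0.764 were next and within their spread of each other (SD, n = 3). Mcm2 was the lowest in every group. Length here is that of all annotated exons merged, 6956 bases for Mcm2 against 3752 for Mcm3, 3589 for Mcm4 and 3993 for Mcm5. The ranking thus depends on the annotation as well as on the counts. In TAM Shp2f/fLysMcre Mcm6 still led, with 30.9 ± 1.75 CPM per kilobase (SD, n = 3).

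**Figure D2:**
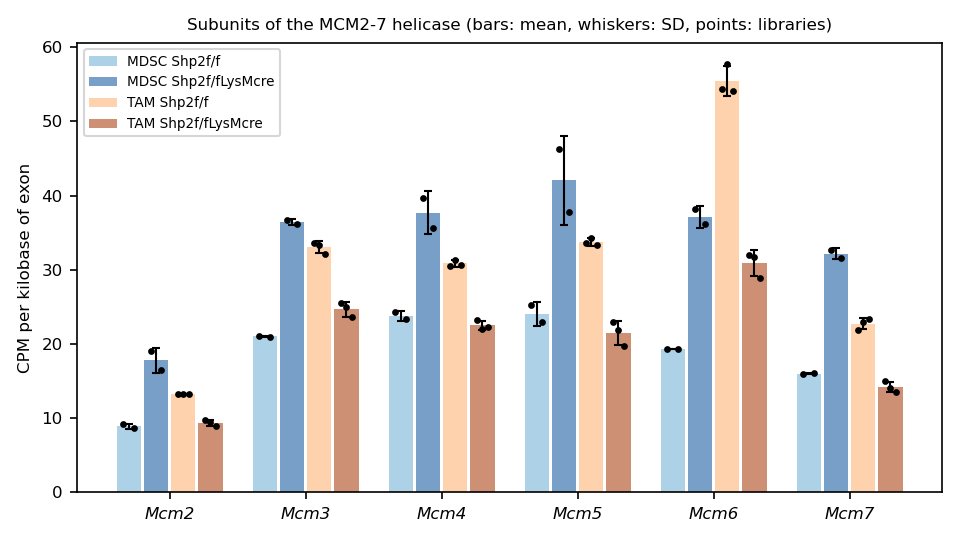
Level of the 6 MCM2-7 subunits in CPM per kilobase of exon (vertical axis, from 0) in the 4 groups; bars are group means, whiskers the SD and points the single libraries (2 per MDSC group, 3 per TAM group). In each subunit the Shp2f/fLysMcre bar is above the Shp2f/f bar in MDSC and below it in TAM, and the TAM Shp2f/f bar of Mcm6, 55.4 CPM per kilobase, is the tallest.

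Among the helicase activation genes, 4 of 7 rose in MDSC (Mcm10, Cdc45, Cdc7 and Gins1), with a median log2 fold change of 0.75 over the 7, and 7 of 7 fell in TAM, with a median of -0.58. Cdc7, the catalytic subunit of the kinase that fires origins, had one of the 3 largest changes in MDSC. It was at 9.43 and 9.12 CPM in MDSC Shp2f/f and 22.2 and 22.1 CPM in MDSC Shp2f/fLysMcre, and at 11.9, 11.2 and 10.9 CPM in TAM Shp2f/f and 6.69, 6.77 and 6.80 CPM in TAM Shp2f/fLysMcre. Its replicates lay close together and no groups of one cell type overlapped. The log2 fold changes were 1.25 (SE 0.118, BH-adjusted p = 0.018 by edgeR) and -0.79 (SE 0.0712, BH-adjusted p = 4.71e-06 by edgeR). Mcm10, which joins the activated helicase, was at 17.5 and 18.1 CPM in MDSC Shp2f/f and 34.4 and 32.3 CPM in MDSC Shp2f/fLysMcre, and at 25.9, 24.2 and 23.4 CPM in TAM Shp2f/f and 14.5, 15.7 and 14.2 CPM in TAM Shp2f/fLysMcre. Its log2 fold changes of 0.90 (SE 0.112, BH-adjusted p = 0.0212 by edgeR) and -0.76 (SE 0.0599, BH-adjusted p = 1.63e-06 by edgeR) were near those of Cdc45, 0.89 and -0.78.

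The 4 GINS subunits, which form a single complex in equal numbers, did not change by equal amounts. Gins1 had log2 fold changes of 0.75 in MDSC and -0.58 in TAM, Gins2 had 0.69 (not called) and -0.46, and Gins3 had 0.64 (not called) and -0.37. Gins4, which had the highest CPM of the role, had the smallest difference in MDSC among all 43 members. It was at 28.2 and 29.8 CPM in MDSC Shp2f/f and 33.8 and 35.1 CPM in MDSC Shp2f/fLysMcre, and at 28.7, 29 and 27.6 CPM in TAM Shp2f/f and 27.6, 26.4 and 24.4 CPM in TAM Shp2f/fLysMcre. The groups did not overlap, in TAM by a narrow margin, with log2 fold changes of 0.24 (SE 0.106, BH-adjusted p = 0.3 by edgeR) and -0.16 (SE 0.0526, BH-adjusted p = 0.0261 by edgeR). The fall of Gins4 in TAM did not pass when TAM Shp2f/f replicate 1 or 2 or TAM Shp2f/fLysMcre replicate 2 or 3 was left out, nor that of Gins3 without Shp2f/f replicate 1 or 2 or Shp2f/fLysMcre replicate 1 or 2. Gins2 shares 67.3% of its exonic bases with Gse1 on the opposite strand, and the strand setting of the counting was not stated, so its values are uncertain.

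Of the primase and polymerase subunits, 4 of 8 rose in MDSC (Prim1, Prim2, Pold1 and Pole), with a median log2 fold change of 0.65 over the 8, and 8 of 8 fell in TAM, with a median of -0.49. Pold1, the catalytic subunit of polymerase delta, which copies the lagging strand, was at 32.3 and 32.3 CPM in MDSC Shp2f/f and 52.6 and 52.8 CPM in MDSC Shp2f/fLysMcre. In TAM it was at 45.9, 47.1 and 45.9 CPM in Shp2f/f and 33.8, 34.6 and 31.2 CPM in Shp2f/fLysMcre. The genotypes stood well apart in both cell types, with log2 fold changes of 0.70 (SE 0.100, BH-adjusted p = 0.0277 by edgeR) and -0.51 (SE 0.0466, BH-adjusted p = 4.69e-06 by edgeR). Pola2, the regulatory subunit of polymerase alpha, was at 30.0 and 32.9 CPM in MDSC Shp2f/f and 43.6 and 44.8 CPM in MDSC Shp2f/fLysMcre, and at 39.9, 39.0 and 37.5 CPM in TAM Shp2f/f and 33.1, 31.6 and 30.1 CPM in TAM Shp2f/fLysMcre. The groups of Pola2 did not overlap, but the MDSC difference of 0.48 did not pass (SE 0.109, BH-adjusted p = 0.0825 by edgeR), and the TAM change was -0.33 (SE 0.0484, BH-adjusted p = 0.000176 by edgeR). Pole, the catalytic subunit of the leading-strand polymerase, had the largest change of the role in both cell types, 1.18 in MDSC and -0.80 in TAM. Its partner Pole2 had 0.60 (not called) and -0.37. Pold2, with 0.36 in MDSC (not called) and -0.46 in TAM, and Pola1, with 0.58 (not called) and -0.67, were the 2 members whose difference was larger in size in TAM than in MDSC.

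In the clamp, loader and lagging-strand role, 6 of 10 rose in MDSC (Pcna, Rfc3, Rfc4, Rfc5, Fen1 and Lig1), with a median log2 fold change of 0.69, and 8 of 10 fell in TAM, with a median of -0.38. Pcna, the sliding clamp and the member with the highest level per length in 3 of the 4 groups, was at 113 and 123 CPM in MDSC Shp2f/f and 182 and 190.2 CPM in MDSC Shp2f/fLysMcre. TAM levels were 149, 153 and 152 CPM in Shp2f/f and 153, 134 and 133 CPM in Shp2f/fLysMcre. One TAM Shp2f/fLysMcre library thus lay above all Shp2f/f libraries, so those groups overlapped. Pcna rose in MDSC (log2 fold change 0.65, SE 0.113, BH-adjusted p = 0.042 by edgeR), and its fall in TAM was small (-0.15, SE 0.0531, BH-adjusted p = 0.0381 by edgeR). The TAM call for Pcna was lost when any single TAM library was left out other than Shp2f/fLysMcre replicate 1.

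The 5 subunits of replication factor C, the ring that opens the clamp, differed in their calls: Rfc3, Rfc4 and Rfc5 passed in both cell types, Rfc1 and Rfc2 in neither. Rfc3, Rfc4 and Rfc5 had log2 fold changes of 1.13, 0.72 and 0.64 in MDSC and -0.31, -0.61 and -0.45 in TAM, all called. Rfc1, the large subunit, was at 80.4 and 74.8 CPM in MDSC Shp2f/f and 101 and 87.6 CPM in MDSC Shp2f/fLysMcre, and at 60.3, 62.7 and 59.0 CPM in TAM Shp2f/f and 64.4, 62.9 and 59.6 CPM in TAM Shp2f/fLysMcre. The TAM groups of Rfc1 overlapped. Its log2 fold changes were 0.27 (SE 0.126, BH-adjusted p = 0.324 by edgeR) and 0.00 (SE 0.0422, BH-adjusted p = 0.95 by edgeR), the latter turning to -0.09 with scaling by total counts. Rfc2 was at 84.2 and 88.6 CPM in MDSC Shp2f/f and 99.9 and 110.2 CPM in MDSC Shp2f/fLysMcre, and at 60.6 CPM in each TAM Shp2f/f library and 63.1, 57.3 and 54.9 CPM in TAM Shp2f/fLysMcre. Its differences of 0.28 (SE 0.111, BH-adjusted p = 0.262 by edgeR) and -0.09 (SE 0.0507, BH-adjusted p = 0.171 by edgeR) did not pass, which does not show that Rfc1 and Rfc2 stayed the same. Without TAM Shp2f/fLysMcre replicate 1, the highest of its group, Rfc2 passed in TAM (-0.14). Rfc2 shares 15.1% of its exonic bases with Lat2 on the opposite strand.

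Rpa1, the large subunit of the protein that coats single-stranded DNA, was at 71.9 and 76.7 CPM in MDSC Shp2f/f and 114 and 107 CPM in MDSC Shp2f/fLysMcre, and at 87.9, 90.6 and 86.3 CPM in TAM Shp2f/f and 77.1, 74.7 and 73.4 CPM in TAM Shp2f/fLysMcre. No groups overlapped within a cell type. The difference of 0.57 in MDSC did not pass (SE 0.112, BH-adjusted p = 0.0592 by edgeR), and Rpa1 fell in TAM (-0.27, SE 0.0370, BH-adjusted p = 0.00011 by edgeR). Its partner Rpa2 had 0.77 (not called) and -0.60. Lig1, the ligase that joins lagging-strand fragments, had the largest change of the role in MDSC, 1.17, and -0.56 in TAM. Fen1, the nuclease that trims those fragments, had 0.82 and -0.44, but 78.8% of its exonic bases are shared with Gm10143 on the opposite strand.

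Of the nucleotide supply genes, 5 of 5 rose in MDSC, with a median log2 fold change of 0.98, and 5 of 5 fell in TAM, with a median of -0.76. Rrm2, the subunit of ribonucleotide reductase that is made in S phase, was at 86.3 and 91.0 CPM in MDSC Shp2f/f and 238 and 216 CPM in MDSC Shp2f/fLysMcre. In TAM it was at 63.9, 66.6 and 63.4 CPM in Shp2f/f and 39.8, 37.1 and 36.0 CPM in Shp2f/fLysMcre. The MDSC Shp2f/fLysMcre libraries were above all others by more than their own distance from each other. Rrm2 had the largest rise of the 43 members (log2 fold change 1.35, SE 0.121, BH-adjusted p = 0.0179 by edgeR) and fell in TAM (-0.82, SE 0.0468, BH-adjusted p = 1.72e-07 by edgeR). Its partner Rrm1 was at 115 CPM in each MDSC Shp2f/f library, at 239 and 208 CPM in MDSC Shp2f/fLysMcre, and at 172, 179 and 165 CPM in TAM Shp2f/f and 108, 105 and 99.9 CPM in TAM Shp2f/fLysMcre. The genotypes of Rrm1 did not overlap, with log2 fold changes of 0.95 (SE 0.126, BH-adjusted p = 0.0237 by edgeR) and -0.76 (SE 0.0419, BH-adjusted p = 1.36e-07 by edgeR).

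Tk1, the thymidine kinase of the salvage pathway, was at 21.6 and 23.7 CPM in MDSC Shp2f/f and 53.6 and 59.1 CPM in MDSC Shp2f/fLysMcre. TAM levels were 51.8, 54.8 and 53.5 CPM in Shp2f/f and 40.1, 36.3 and 35.7 CPM in Shp2f/fLysMcre. The genotypes did not overlap, and the MDSC Shp2f/fLysMcre level reached that of TAM Shp2f/f. The log2 fold changes were 1.31 (SE 0.116, BH-adjusted p = 0.0179 by edgeR) and -0.55 (SE 0.0513, BH-adjusted p = 5.96e-06 by edgeR). Tyms, which makes thymidylate, had 0.98 and -0.72, and Dut, which clears dUTP, had 0.92 and -0.78.

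The 3 chromatin assembly genes rose in MDSC, with a median log2 fold change of 1.05, and fell in TAM, with a median of -0.68. Uhrf1, which brings the maintenance methyltransferase to newly copied DNA, was at 51.0 and 50.1 CPM in MDSC Shp2f/f and 114 and 101 CPM in MDSC Shp2f/fLysMcre. In TAM it was at 85.1, 86.3 and 88.2 CPM in Shp2f/f and 51.0, 52.3 and 47.5 CPM in Shp2f/fLysMcre. The genotypes did not overlap, and the TAM Shp2f/fLysMcre libraries stood near the MDSC Shp2f/f libraries. Its log2 fold changes were 1.08 (SE 0.118, BH-adjusted p = 0.0184 by edgeR) and -0.82 (SE 0.0432, BH-adjusted p = 9.67e-08 by edgeR). Chaf1a, the large subunit of the histone chaperone at the fork, was at 26.1 and 23.9 CPM in MDSC Shp2f/f and 52.8 and 50.8 CPM in MDSC Shp2f/fLysMcre, and at 48.5, 48.8 and 48.0 CPM in TAM Shp2f/f and 32.2, 30.6 and 29.9 CPM in TAM Shp2f/fLysMcre. It rose in MDSC (1.05, SE 0.112, BH-adjusted p = 0.0183 by edgeR) and fell in TAM (-0.68, SE 0.0442, BH-adjusted p = 3.96e-07 by edgeR), with 52.5% of its exonic bases shared with Ubxn6 on the opposite strand. Chaf1b, its partner, which has no such overlap, had 0.87 and -0.61.

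**Figure D3:**
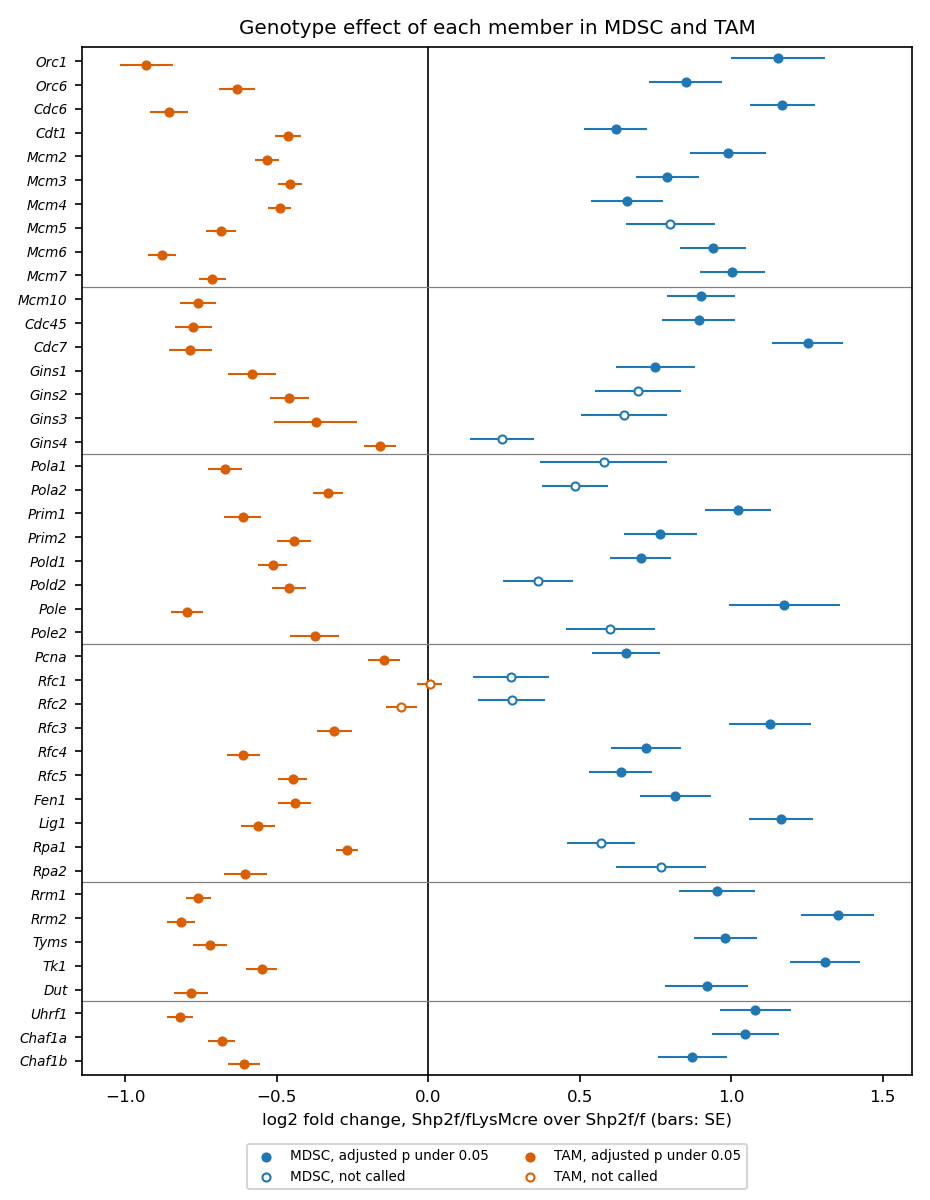
Log2 fold change of Shp2f/fLysMcre over Shp2f/f (horizontal axis) for each of the 43 members (vertical axis, grouped by role), in MDSC (blue) and TAM (orange); bars are the SE, filled points passed an adjusted p under 0.05 and open points did not. All 43 MDSC points lie to the right of 0, from 0.24 to 1.35, and all TAM points but Rfc1 lie to its left, down to -0.93, with shorter error bars.

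The genotype effect differed between the cell types for nearly every member. Tested as the difference itself over the 10 samples, the effect in TAM was lower than that in MDSC for 42 of 43 members (edgeR quasi-likelihood interaction, BH-adjusted p under 0.05), where 12.7% of all 16581 genes tested were called in that direction and 12.2% in the other. The median difference was -1.41 on the log2 scale, and it ran from -2.14 for Rrm2 to -0.24 for Rfc1, the one member that did not pass (SE 0.101, BH-adjusted p = 0.115 by edgeR). Gins4 (-0.37) and Rfc2 (-0.34) had the smallest differences that passed, and both calls were lost in a fit with sample weights for each cell type (limma voom, chosen after the data were seen) and without either MDSC Shp2f/f library. The call of Rfc2 was lost without any other single library except replicate 1 of either Shp2f/fLysMcre group, and Rfc1 passed without MDSC Shp2f/fLysMcre replicate 2 (-0.34). Replicates varied more in MDSC than in TAM, with common biological coefficients of variation over all genes of 0.189 and 0.0595. The interaction fit estimated spread over both cell types together, with a common value of 0.141.

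Of the 43 members, 31 were called higher in MDSC and lower in TAM, or 72.1%, beside 243 of the 13147 genes tested in both cell types (1.85%). A further 10 were called lower in TAM and not called in MDSC, 0 were called in MDSC alone, and Rfc1 and Rfc2 were called in neither. MDSC and TAM share no library. Members with larger rises in MDSC had larger falls in TAM: across the 43 members Pearson's r between the log2 fold changes was -0.74 and Spearman's rho -0.72, beside -0.06 and -0.15 over all 13147 genes. These are descriptions across genes, which are not independent of each other and share libraries within each cell type.

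**Figure D4:**
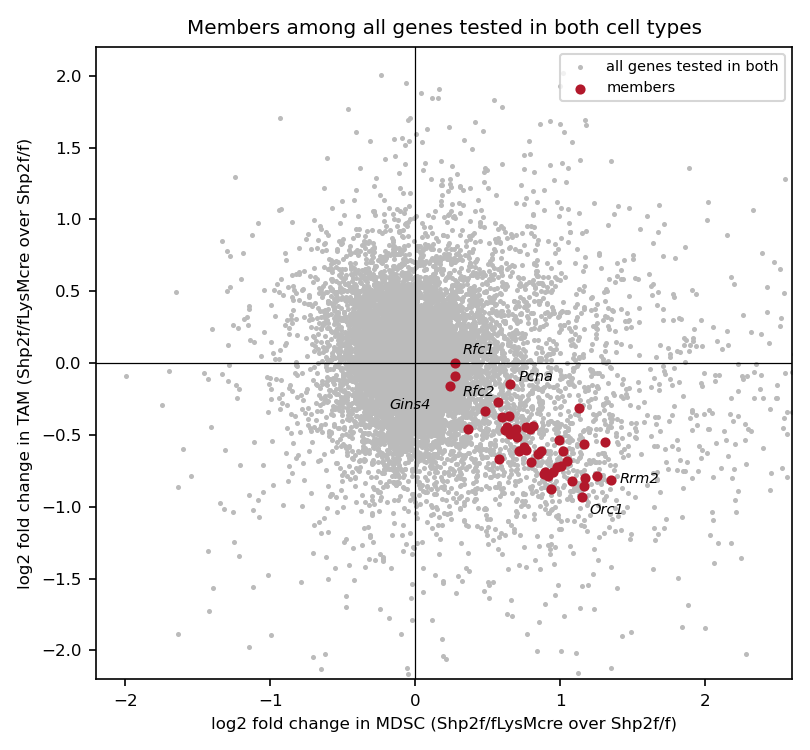
Log2 fold change of Shp2f/fLysMcre over Shp2f/f in MDSC (horizontal axis) against TAM (vertical axis) for all genes tested in both (grey) and the 43 members (red); 137 genes lie outside the range shown. The members sit at the lower right, from Gins4, Rfc1 and Rfc2 near the centre to Rrm2 and Orc1 at the far end.

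The 14 members with an E2F-type match and the 22 with a window and no match had nearly equal medians. In MDSC the median log2 fold changes were 0.87 with and 0.88 without a match, and in TAM they were -0.62 and -0.61. The 3 members with the largest falls in TAM, Orc1, Mcm6 and Cdc6, all had a match, whereas Rrm2, Tk1 and Cdc7, with the largest rises in MDSC, had none in the window. No test was run on this split.

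Between the cell types of Shp2f/f mice, most members were higher in TAM. At a BH-adjusted p under 0.05 by edgeR 33 were higher and 8 lower, where 40.0% of all 15659 genes tested were called higher and 38.8% lower, with a median log2 difference (TAM over MDSC) of 0.48. The largest were 1.55 for Pole, 1.52 for Mcm6, 1.23 for Tk1 and 1.20 for Gins2. The 8 lower in TAM were Rfc2 (-0.51), Rrm2 (-0.46), Gins3 (-0.43), Rpa2 (-0.40), Rfc1 (-0.36), Cdc6 (-0.21), Dut (-0.17) and Cdc45 (-0.16), and Rfc4 and Gins4 were not called. Without TAM Shp2f/f replicate 3 the number called lower was 5, since Cdc6, Cdc45 and Dut no longer passed. Cdc45 also lost its call without any other library except TAM Shp2f/f replicate 2, Dut without MDSC Shp2f/f replicate 2 or TAM Shp2f/f replicate 1, and Cdc6 and Gins1 without MDSC Shp2f/f replicate 1. Per kilobase, Pcna led in both, with 49.2 CPM per kilobase in MDSC Shp2f/f and 63.1 in TAM Shp2f/f, and Pole (1.08) and Orc1 (1.45) were the lowest in MDSC, Gins3 (2.03) and Orc1 (2.43) in TAM. Tissue, isolation method and cell type cannot be told apart in this comparison.

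Other genes of the cell cycle gave the context. Of 20 mitosis genes, 15 rose in MDSC, with a median log2 fold change of 1.03, and 20 of 20 fell in TAM, with a median of -0.88. Nusap1 (1.29) and Cdk1 (1.25), a spindle protein and the kinase of mitotic entry, had the largest rises, and Ube2c (-1.02) and Bub1 (-0.99), which act in the exit from and the checkpoint of mitosis, the largest falls. In the interaction 20 of 20 were lower in TAM. Of 32 other replication factors 9 rose in MDSC, led by Ticrr (1.40) and Clspn (1.25), an origin-firing factor and a fork checkpoint mediator, and 26 fell in TAM, led by Ticrr (-1.07) and Mcm8 (-0.92), while 1, Donson (0.22), rose. The origin recognition subunits Orc2, Orc3, Orc4 and Orc5, which are not tied to the cell cycle as Orc1 is, had differences between -0.27 and 0.29 in MDSC, none called, and in TAM Orc2 (-0.40) and Orc3 (-0.18) fell.

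Of 21 G1/S cyclins, kinases and E2F factors, 7 rose in MDSC (E2f1, E2f7, Tfdp2, Ccne1, Ccna2, Cdk2 and Cdc25a), led by E2f7 (1.33), an E2F repressor, and Cdc25a (1.12), the phosphatase that activates Cdk2. In TAM 17 fell, led by cyclin E2 (Ccne2, -0.95) and cyclin A2 (Ccna2, -0.88), and Skp2 (0.25) rose. CDK inhibitors and pocket proteins, the brakes on S-phase entry, went differently: in TAM 5 of 10 rose, among them Rb1 (0.49), Cdkn1a (0.45) and Cdkn1b (0.39), and 3 fell, led by Cdkn2c (-0.71). In MDSC 1 of the 8 tested, Cdkn2c (0.86), rose. Of the other deoxynucleotide genes the median log2 fold change in MDSC was 0.14, with 6 above and 5 below 0, and 7 of 12 tested fell in TAM, led by Cda (-1.53) and Dctd (-1.11), which deaminate cytidine compounds, and 4 rose. These calls are by the edgeR quasi-likelihood test at an adjusted p under 0.05 over all genes tested, and Donson, Skp2 and Orc2 to Orc5 were named after their values had been seen.

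**Figure D5:**
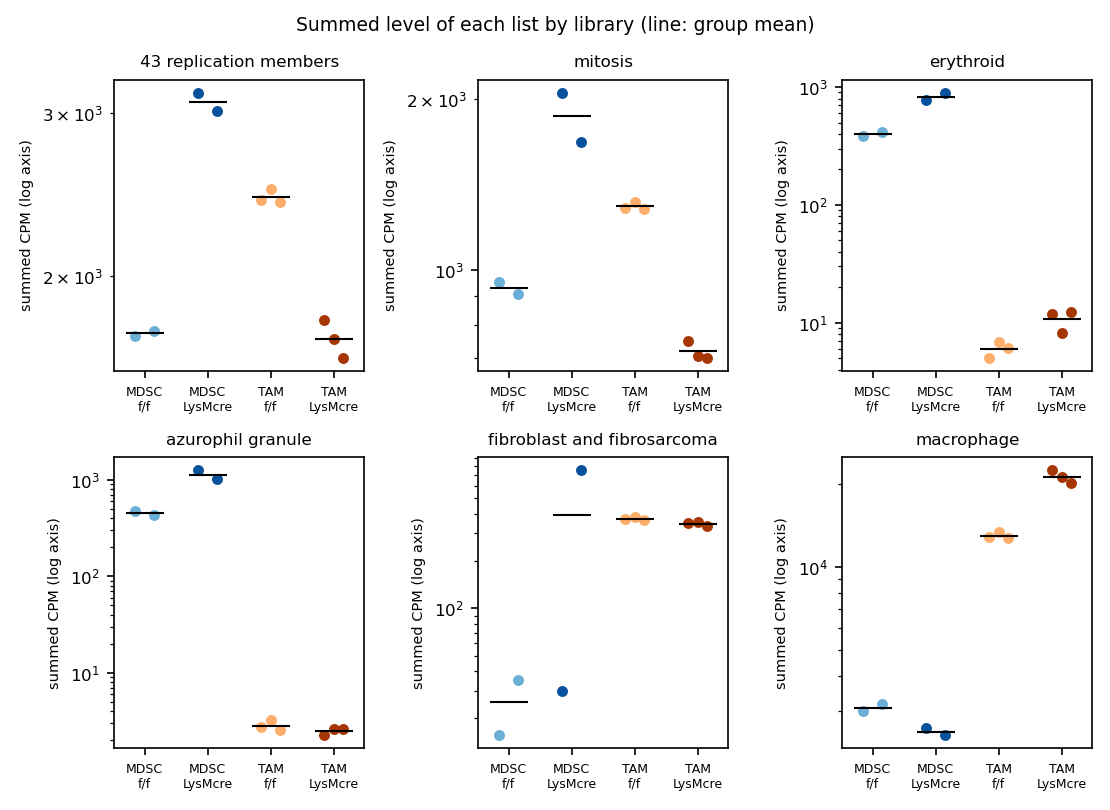
Summed CPM (log axis, a separate scale in each panel) of the 43 members and of 5 other gene lists in each library, by group; points are libraries and lines group means. The members and the mitosis list rise in MDSC and fall in TAM, the erythroid and azurophil granule lists rise in MDSC and are near 10 CPM or below in TAM, the fibroblast list is high in 1 MDSC Shp2f/fLysMcre library, and the macrophage list rises in TAM.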

How the data were processed

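The authors prepared stranded poly(A) libraries, removed adapters with Cutadapt 2.5, aligned reads to GRCm38 with STAR 2.7.3a and counted them over Ensembl genes with featureCounts (Subread 1.6.2). The deposited counts are whole reads per gene, not normalized; strand and multi-mapping settings are not given in the sources used here. A deposited table of size-factor normalized signal from the authors was not used. Symbols, coordinates and exon lengths came from GENCODE for GRCm38 (99.67% of identifiers).

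Counts were fitted over the whole table with edgeR 4.0.16 (R 4.3.3): filterByExpr with a minimum count of 10, TMM scaling and the quasi-likelihood F test, with Benjamini-Hochberg adjustment and calls at 0.05. MDSC, TAM, the interaction (10 samples) and the Shp2f/f samples each had a fit. Groups came from the sample titles. Levels are CPM, or CPM per kilobase of merged exons. Each SE of a log2 fold change was derived from the test, as its absolute value divided by the square root of the F statistic. Intervals of counting error were not needed at 120 or more counts per member. The fits were also run on simulated counts with a single spread for all genes of a cell type, unlike these data. No outcome of that run is used here.

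Per-library values and full statistics went to the 2 members of each role with the highest mean CPM and to the 3 largest and 3 smallest changes in each cell type; in each other list, up to 4 called genes per comparison were named. The members and lists were chosen with earlier results of these data known. Replicate counts differed by a chi-square per degree of freedom of 4.63 to 64.5, where a repeated library would give a value near 1. Alternatives were DESeq2 1.42.0, its size factors, total-count scaling, other filters, a stricter threshold, a replicate block, a joint fit and leaving out each replicate; limma 3.58.1 voom with weights per cell type was added after the data were seen. The number of other deoxynucleotide genes called in MDSC is not reported here.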

Additional observations from a re-analysis of the deposited data

Results flagged for a closer look

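The genotype effect differed between TAM and MDSC, by a test of the difference itself, for 17 of the 18 members given in full, and Rfc1 was the exception. As TAM minus MDSC on the log2 scale (edgeR quasi-likelihood interaction, BH-adjusted p under 0.05), the difference was -2.06 for Orc1, -2.00 for Cdc6, -1.79 for Mcm6 and -1.45 for Mcm5 among licensing genes. It was -2.01 for Cdc7, -1.63 for Mcm10 and -0.37 for Gins4 in helicase activation, and -1.19 for Pold1 and -0.79 for Pola2 among the polymerases. The clamp, loader and lagging-strand genes had -0.81 for Rpa1, -0.77 for Pcna and -0.34 for Rfc2. Nucleotide supply had -2.14 for Rrm2, -1.83 for Tk1 and -1.68 for Rrm1, and chromatin assembly had -1.87 for Uhrf1 and -1.70 for Chaf1a. In 15 of the 17 every Shp2f/fLysMcre library lay above every Shp2f/f library in MDSC and below every one in TAM, and for Pcna and Rfc2 the genotypes overlapped in TAM. Taken separately, these orders were shown by 24.9% of all genes tested in MDSC and 27.2% in TAM, and the joint share was not computed. The members given in full were picked by level or by the size of their change in these data.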

How the results depend on the processing

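The number of members called higher in MDSC was the result that moved most. It was 31 as reported, 10 with no filter on low counts and 0 at an adjusted p under 0.01, and from 0 to 41 when each replicate was left out. Calls over all genes moved too: 556 of 14806 genes tested were called higher in the main fit and 2 at an adjusted p under 0.01. With no filter 122 of 27261 were called higher. The counts from 0 to 41 came from fits that left a lone sample in its group, in which calls over all genes also changed. These member counts thus follow the number of calls in the whole table as well as the members. Without the filter 21 members lost their call. Scaling and spread were then estimated anew over the larger set of genes, and the cause of the loss was not tested. All 43 stayed above 0 in every alternative. In TAM the number called lower was from 38 to 42 over all alternatives, in the interaction from 40 to 43. In the comparison of cell types the number called lower, 8, was 4 at an adjusted p under 0.01, and from 5 to 8 when each replicate was left out.

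Replicate numbers were not shown to pair samples: same-numbered deviations correlated at 0.37 in MDSC, with 2 pairs, and from -0.16 to 0.06 in TAM. With the number as a replicate block 40 members were called higher in MDSC (31 kept, 9 gained), 40 lower in TAM (Gins3 lost) and 42 lower in the interaction. In MDSC 1870 of all 14806 genes tested were called higher with that block, against 556 in the main fit.

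The log2 fold change of Rfc1 in TAM, 0.00, turned to -0.0945 with total counts, -0.00781 with no filter and -0.00238 with a filter of 1 CPM, and ran from -0.0184 to 0.0328 when each replicate was left out. That of Gins4 between the cell types ran from -0.0686 to 0.00638 when each replicate was left out, the latter without MDSC Shp2f/f replicate 2. The cause was not tested. Total-count scaling shifted the median of all genes by over 0.1 in TAM (-0.11) and in the interaction (-0.18), and the members' medians there were -0.68 and -1.58. With 120 or more counts per member and library, depth kept no member out of a test.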
